A study of Mus musculus with 10 samples.

Results

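Genes for transporters, metabolic enzymes and secreted proteins that mark astrocytes in the mature brain were followed through the development of the mouse neocortex. They were chosen by name: Slc1a2, Slc1a3, Slc6a11, Glul, Apoe, Aqp4, Sparcl1, Aldh1l1 and Aldoc. Of these 9 names, 8 had a row among the 6147 genes of the deposited table, and Aqp4 was not analysed here. RNA came from frozen neocortex of mice labelled CD1 wild type, an outbred strain, taken at E12.5, E14, E15.5 or E17, counted in days of embryonic development, or on the day of birth (P0). Each stage had 2 libraries, 10 in all, which the series text calls biological duplicates; no treatment, sex, litter or number of pooled animals is given in the sources used here. Values are TPM, which give each gene as a share of all transcripts after correction for its length, so the read depth behind them is unknown.

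Astrocytes take up glutamate and GABA from around synapses, turn glutamate into glutamine for neurons, supply lipoprotein particles and secrete proteins that act on synapses. In the cortex they arise late, from radial glia, the progenitors that first produce neurons. Radial glia already use some of the same genes, including the glutamate transporter Slc1a3, whereas others are known as markers of more mature astrocytes. In bulk tissue, fewer cells of a type and less RNA per cell cannot be told apart.

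Markers of the tissue and of other cells were checked first. The 9 listed neocortical neuron genes, among them Neurod2, summed to 3013 and 3042 TPM at E12.5, 4095 and 3945 at E14, 7914 and 8023 in the E15.5 libraries, 8426 and 8169.8 in those of E17, and 8985 and 9705 in those of P0. Of these 9 genes 6 rose and 0 fell from E14 to E15.5 in limma, against 18.4% of all genes higher and 33.3% lower. From E12.5 to P0 6 of the 9 rose and 2 fell, against 27.1% of all genes higher and 51.0% lower. The part of neurons in the rise of the genes described here was not tested. Genes of the meninges, blood vessels, choroid plexus and red blood cells stood far higher at E12.5 and E14 than later. The 9 meningeal genes summed to between 769.8 and 1056 TPM in the 4 libraries of E12.5 and E14 and to between 50.9 and 149 TPM in the other 6. The astrocyte gene Gfap, an intermediate filament gene, was between 0.114 and 1.98 TPM in the 8 embryonic libraries. At P0 it was at 27.7 and 25.5 TPM, and it rose most among 21 tested genes of a wider astrocyte list. Of those 21, 12 rose and 9 fell from E12.5 to P0. The 2 libraries of E17 differed more than those of other stages, with an SD of the difference between replicates of 0.285 on the log2(TPM + 1) scale over all genes tested, against 0.088 to 0.176.

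From E12.5 to P0, 7 of the 8 genes rose and 1, Aldoc, fell. The GABA transporter gene Slc6a11 and the folate enzyme gene Aldh1l1 rose most on the log2(TPM + 1) scale, from about 1 TPM or less, and Slc1a3 had the smallest change. All 8 differed over the 5 stages in limma's moderated F test, at a Benjamini-Hochberg adjusted p under 0.05, where 82.9% of the 6048 genes tested did so. Between E12.5 and P0, 78.2% of all genes were called, 27.1% as higher and 51.0% as lower. The median change was 0.9996 for the 8 genes and -0.27 for all genes in log2(TPM + 1). On that scale the change of a low gene comes out smaller than its ratio of TPM. All 8 directions and calls were kept under median-of-ratios scaling and quantile normalization, which both bring the median of all genes close to 0. The call of Slc1a3, the nearest to the threshold, was lost in several other settings given below. The summed level of the 8 genes was lowest at E15.5, with 446 and 466 TPM, and highest at P0, with 741 and 757 TPM. Glul and Aldoc were the highest of the 8 at every stage and weighed most in this sum. From E14 to E15.5 mean Aldoc went from 248 to 144 TPM, and Apoe, Slc1a2 and Slc1a3 also had lower means. Those of Glul, Sparcl1, Slc6a11 and Aldh1l1 were higher.

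**Figure D1:**
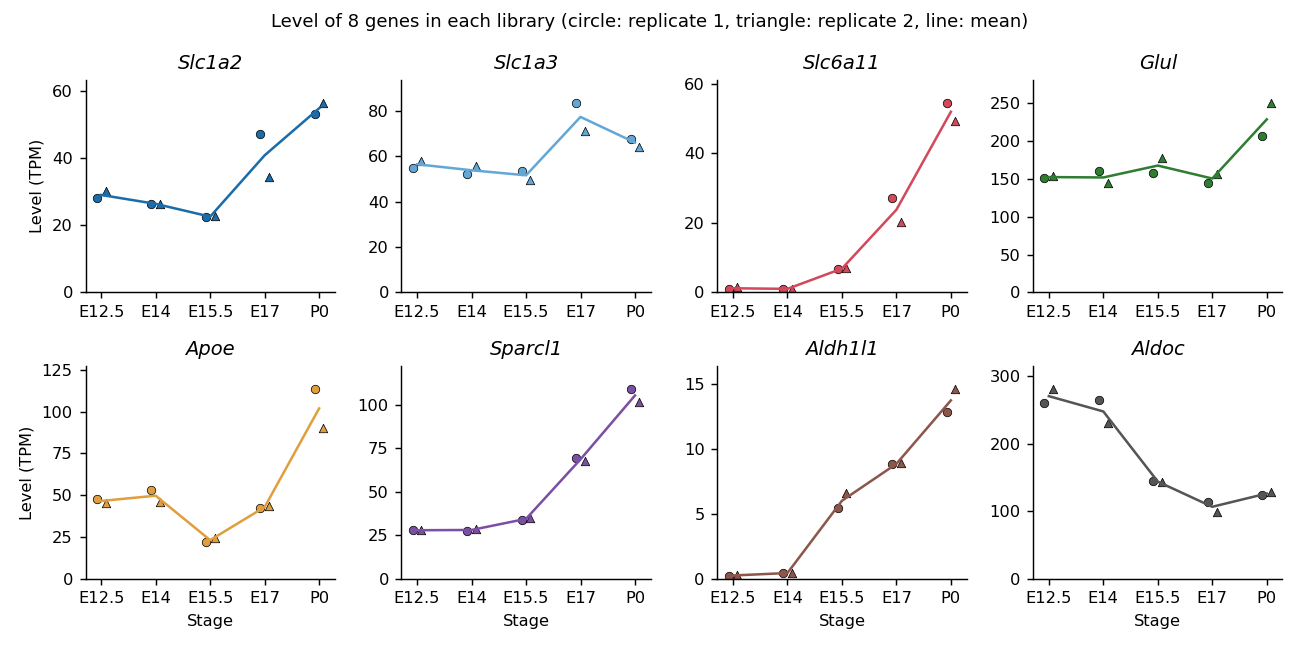
Level in TPM (vertical axis, from 0, a separate scale for each gene) against stage (horizontal axis) for 8 genes; circles are replicate 1, triangles replicate 2 and lines the mean. Slc6a11, Aldh1l1 and Sparcl1 climb to their highest values at P0, Apoe dips at E15.5, and Aldoc is lower from E15.5 on.

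The changes were not spread evenly over the period. None of the 8 genes (0) was called between E12.5 and E14 by limma, where 8.73% of all genes were (3.95% higher and 4.78% lower), and 0 of them had an unadjusted p under 0.05. Between E14 and E15.5, 3 rose (Aldh1l1, Slc6a11 and Sparcl1) and 2 fell (Apoe and Aldoc); of all genes, 51.7% were called, 18.4% higher and 33.3% lower. The step from E15.5 to E17 held 6 rises and the fall of Aldoc, leaving Glul uncalled, against 25.0% of all genes called, 14.4% higher and 10.6% lower. With only the 4 libraries of E15.5 and E17 in the fit, 3 of those 7 calls were left: Slc6a11, Apoe and Sparcl1. That fit called few genes at all, 92 of 6048 as higher and 28 as lower. Between E17 and P0, 6 rose and none fell, with Slc1a3 and Aldoc uncalled, against 41.7% of all genes called, 12.9% higher and 28.8% lower. The median change of the 8 genes was 0.04, 0.69 and 0.59 over these last 3 steps, and that of all genes was -0.13, 0.01 and -0.10.

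**Figure D2:**
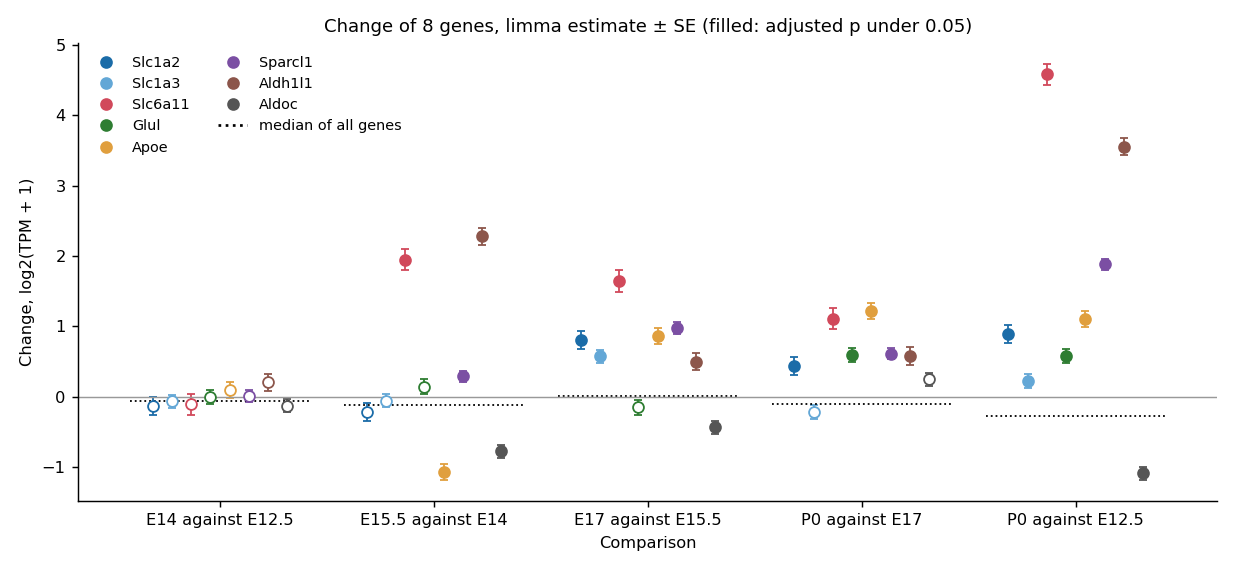
Change on the log2(TPM + 1) scale (vertical axis) with its SE for each of 8 genes in each of 5 comparisons (horizontal axis); filled points had an adjusted p under 0.05 in limma, and dotted lines mark the median of all genes. All points are open between E12.5 and E14, and Apoe and Aldoc lie below 0 between E14 and E15.5.

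Slc1a2 and Slc1a3 encode the transporters GLT-1 and GLAST, which clear glutamate from the extracellular space. Slc1a2 lies on the forward strand of chromosome 2 from 102658659 to 102790784 and Slc1a3 on chromosome 15, reverse strand, from 8634124 to 8710764, both in GRCm38. Slc1a2 measured 27.98 and 30.1 TPM in the E12.5 libraries, 26.3 and 26.5 in those of E14, 22.5 and 22.7 in those of E15.5, 47.2 and 34.4 in those of E17, and 53.1 and 56.5 in those of P0. Both P0 libraries were above all others, both E15.5 libraries were below all others, and the E17 libraries stood apart from each other. From E12.5 to P0 Slc1a2 rose by 0.89 (SE 0.13, adjusted p 4.73e-05 in limma), a 1.89-fold rise in mean TPM. The rise came after E15.5: 0.81 to E17 (adjusted p 0.00146) and a further 0.43 to P0 (0.0191). The last step was not called without E17 replicate 2 (0.21, adjusted p 0.0522), without P0 replicate 1 (0.48, 0.0621) or without P0 replicate 2 (0.39, 0.101). With only the 4 libraries of the stages compared, the adjusted p was 0.0688 for the step to E17 and 0.0817 for that to P0.

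Slc1a3 was higher than Slc1a2 in each of the 10 libraries, and changed less. Slc1a3 measured 54.9 and 57.8 TPM in the E12.5 libraries, 52.1 and 55.4 in those of E14, 53.4 and 49.7 in those of E15.5, 83.6 and 70.9 in those of E17, and 67.7 and 64.2 in those of P0. The E17 libraries were the highest of the 10, and neighbouring stages overlapped up to E15.5. Slc1a3 rose by 0.57 from E15.5 to E17 (SE 0.09, adjusted p 0.00199 in limma), with an adjusted p of 0.0654 when only those 4 libraries were fitted. From E17 to P0 its change was -0.22 (adjusted p 0.0809), which was called without E17 replicate 2 (-0.34, 0.00328). Over the whole period it rose by 0.22 (SE 0.09, adjusted p 0.0484 in limma). The call was lost with a pseudocount of 10 TPM (0.19, adjusted p 0.0511), with no filter (0.22, 0.0507) and with the replicate number as a block (0.22, 0.0579). This last call was lost without any one library of E12.5, E14, E15.5 or P0, with adjusted p between 0.0672 and 0.206, and it was firmer under median-of-ratios scaling (0.49, adjusted p 0.000118).

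Because both transporters were measured in each library, their difference does not depend on the scaling between libraries, apart from the pseudocount. Slc1a2 minus Slc1a3 on the log2(TPM + 1) scale averaged -0.94 ± 0.02 in the E12.5 libraries, -0.9997 ± 0.06 in those of E14, -1.16 ± 0.08 in those of E15.5, -0.92 ± 0.15 in those of E17 and -0.26 ± 0.12 in those of P0 (SD, n = 2 each). The P0 libraries, at -0.34 and -0.18, lay above the other 8, so the transporters were closest in level at birth. The F statistic, compared with its values under all 945 assignments of the 10 libraries to 5 stages of 2 in an exact permutation test, gave p = 0.0169 (one-sided upper tail, adjusted 0.0254 over 3 such differences), where the smallest p possible is 0.00106. Without E15.5 replicate 1 the exact test gave an adjusted p of 0.0889, with the same difference of 0.67 between P0 and E12.5.

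**Figure D3:**
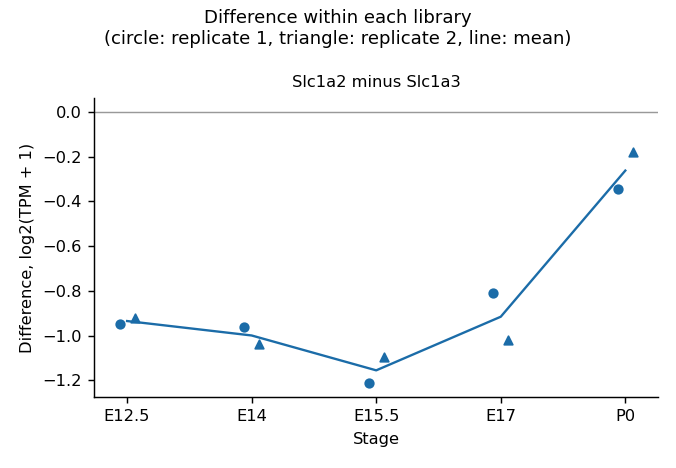
Difference between the log2(TPM + 1) values of Slc1a2 and Slc1a3 in the same library (vertical axis) against stage (horizontal axis); circles are replicate 1, triangles replicate 2 and the line the mean. The P0 libraries, at -0.34 and -0.18, are the highest, and all 10 lie below 0.

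Slc6a11 encodes GAT-3, a GABA transporter found mainly on astrocytes, and lies on the forward strand of chromosome 6 from 114131241 to 114249952. Slc6a11 measured 0.982 and 1.45 TPM in the E12.5 libraries, 0.942 and 1.14 in those of E14, 6.82 and 6.91 in those of E15.5, 27.2 and 20.4 in those of E17, and 54.6 and 49.3 in those of P0. The E12.5 and E14 libraries overlapped, and from then on each stage lay wholly above the one before. The rises were 1.95 to E15.5 (SE 0.15, adjusted p 1.46e-06 in limma), 1.64 to E17 (0.000121) and 1.11 to P0 (0.000254). Over the whole period mean TPM rose 42.7-fold, and the change of 4.58 on the log2(TPM + 1) scale (SE 0.15, adjusted p 1.76e-10) became 5.33 with a pseudocount of 0.1 TPM and 2.46 with 10 TPM. In rank, Slc6a11 went from the lowest 2.29% of the listed genes or below at E12.5 to percentiles 61.9 and 58.2 at P0.

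Slc6a11 and Aldh1l1 had the largest rises of the 8 genes on the log2(TPM + 1) scale, and each was the other's nearest neighbour among them in its pattern over the libraries. Apoe and Aldoc both fell from E14 to E15.5. Sequences from the 250 bases before the RefSeq starts of these 4 genes (GRCm38.p6) are therefore given here, 5′ to 3′. Each stops before the first base of an annotated GENCODE exon of the gene. For Aldoc the RefSeq start lies 105 bases downstream of the GENCODE gene start, so its window ends short of the RefSeq start. Capitals mark matches on either strand to TTGGC, the half-site of NFI factors, and to ACAAAG or ACAATG, motifs of SOX factors. The windows are chr6:114130991-114131240 (forward strand) for Slc6a11, chr6:90550543-90550788 (forward) for Aldh1l1, chr7:19699189-19699438 (reverse) for Apoe and chr11:78322823-78322967 (forward) for Aldoc.
Slc6a11: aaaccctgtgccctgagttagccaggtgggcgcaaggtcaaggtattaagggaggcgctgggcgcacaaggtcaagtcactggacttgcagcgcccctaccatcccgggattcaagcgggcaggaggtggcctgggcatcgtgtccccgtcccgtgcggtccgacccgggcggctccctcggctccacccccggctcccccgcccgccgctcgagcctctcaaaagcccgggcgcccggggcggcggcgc
Aldh1l1: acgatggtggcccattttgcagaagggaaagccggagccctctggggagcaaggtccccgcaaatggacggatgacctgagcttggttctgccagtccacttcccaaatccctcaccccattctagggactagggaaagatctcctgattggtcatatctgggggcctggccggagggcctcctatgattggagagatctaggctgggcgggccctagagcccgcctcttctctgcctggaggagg
Apoe: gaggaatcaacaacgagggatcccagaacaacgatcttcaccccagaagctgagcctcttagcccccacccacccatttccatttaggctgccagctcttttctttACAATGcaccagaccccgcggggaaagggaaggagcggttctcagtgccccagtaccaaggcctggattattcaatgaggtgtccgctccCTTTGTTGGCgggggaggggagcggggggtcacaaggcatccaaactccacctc
Aldoc: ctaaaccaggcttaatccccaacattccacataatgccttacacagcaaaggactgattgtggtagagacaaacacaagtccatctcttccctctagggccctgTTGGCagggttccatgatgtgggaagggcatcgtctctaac
The windows of Slc6a11 and Aldh1l1 held neither motif. That of Aldoc held 1 NFI half-site, and that of Apoe held 1 NFI half-site, which overlapped by 1 base with 1 of its 2 SOX motifs. RefSeq starts were matched for 7 of the 8 genes; for Aldh1l1 the RefSeq start lies 64366 bases downstream of the GENCODE gene start, and for Slc1a2 47779 bases. Over the 250 bases before the start, 4 of the 7 held the NFI half-site (Slc1a2, Glul, Apoe and Aldoc) and 1 a SOX motif, against 41.5% and 25.2% of all 32851 RefSeq promoter windows of that length. A match describes these letters and is not a binding site.

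Glul encodes glutamine synthetase, which joins glutamate and ammonia in astrocytes, and lies on the forward strand of chromosome 1 from 153899944 to 153909723. Glul measured 151 and 154 TPM in the E12.5 libraries, 159.9 and 144 in those of E14, 158 and 178 in those of E15.5, 145 and 157 in those of E17, and 206 and 251 in those of P0. The 4 embryonic stages lay in one band between 144 and 178 TPM, and both P0 libraries were above it. Glul rose by 0.59 from E17 to P0 (SE 0.10, adjusted p 0.0012 in limma) and by 0.57 from E12.5 to P0 (adjusted p 0.000297), a 1.5-fold rise in mean TPM. The 3 earlier steps were not called, with changes of -0.01, 0.14 and -0.15.

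Around these genes, 14 of 21 listed genes of glutamate, glutamine and GABA handling were tested. From E12.5 to P0, 27.1% of all genes were called higher and 51.0% lower. Of these 14, 10 rose and 2 fell, with a median of 0.54. Slc1a1 (10.8 ± 0.09 to 40.4 ± 1.15 TPM, change 1.81, adjusted p 1.37e-08 in limma), which encodes the neuronal glutamate transporter EAAC1, rose. The GABA-degrading transaminase Abat rose by 1.28 and the glutamate dehydrogenase Glud1 by 0.52. The genes that fell were Slc1a5, a neutral amino acid transporter (15.49 ± 1.03 to 1.3 ± 0.29 TPM, change -2.86, adjusted p 4.81e-09), and the glutamine transporter Slc38a1 (-0.90, adjusted p 6.18e-05). Slc1a1 reached its highest levels at E17, with 51.5 and 46.1 TPM, where Slc1a3 was also highest.

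Aldh1l1 encodes a cytosolic folate enzyme, 10-formyltetrahydrofolate dehydrogenase, that is widely used as a marker of astrocytes. It lies on the forward strand of chromosome 6 from 90486427 to 90600203. Aldh1l1 measured 0.191 and 0.319 TPM in the E12.5 libraries, 0.476 and 0.410 in those of E14, 5.45 and 6.58 in those of E15.5, 8.81 and 8.91 in those of E17, and 12.9 and 14.6 in those of P0. No library of a stage overlapped with one of another stage. Its rise from E14 to E15.5 was 2.28 (SE 0.12, adjusted p 1.15e-07 in limma), 13.6-fold in mean TPM. The size of this step turned on the pseudocount: it was 3.49 with 0.1 TPM and 0.62 with 10 TPM, where the step of Slc6a11 from E15.5 to E17 (0.995) and that of Apoe from E17 to P0 (1.07) were larger. From E14 to E15.5 the summed neuronal markers also rose, as given above. It rose by a further 0.50 to E17 (adjusted p 0.0147) and 0.58 to P0 (0.0038). The step from E15.5 to E17 was not called without E15.5 replicate 1 (0.38, adjusted p 0.155) or with a pseudocount of 0.1 TPM (0.56, 0.0582), and neither of these last 2 steps was called with array weights (0.144 and 0.0986). The whole rise was 3.55 (SE 0.12, adjusted p 2.58e-10), or 53.9-fold in mean TPM. It was 5.31 with a pseudocount of 0.1 TPM and 1.21 with 10 TPM, the latter below the 1.61 of Sparcl1. With values under 0.5 TPM at E12.5 and E14 and the depth unknown, the size of this ratio is uncertain.

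Other folate enzymes went the opposite way. Of 14 listed genes 11 were tested. From E12.5 to P0, 51.0% of all genes were called lower and 27.1% higher. Of these 11, 10 fell and 1 rose, with a median of -1.46. Tyms, which makes thymidylate for DNA, fell most (106 ± 1.10 to 8.1 ± 0.28 TPM, change -3.57, adjusted p 2.77e-11 in limma). The gene that rose was Aldh1l2, the mitochondrial relative of Aldh1l1, from 5.3 ± 0.06 to 20.3 ± 2.18 TPM (1.74, adjusted p 1.77e-07). The call of Ggh was lost under median-of-ratios scaling and quantile normalization, and that of Mthfd1l under quantile normalization.

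Sparcl1 encodes hevin, a secreted matricellular protein of astrocytes that is known to promote synapse formation, and lies on chromosome 5, reverse strand, from 104079111 to 104113733. Sparcl1 measured 27.9 and 27.9 TPM in the E12.5 libraries, 27.6 and 28.4 in those of E14, 33.7 and 35.1 in those of E15.5, 69.4 and 67.8 in those of E17, and 109 and 102 in those of P0. The 2 libraries of each stage lay close together, and each stage from E15.5 on was above the one before. It rose by 0.29 to E15.5 (SE 0.08, adjusted p 0.0115 in limma), 0.98 to E17 (8.85e-05) and 0.61 to P0 (0.000212). The first of these was not called without E14 replicate 1 (0.27, adjusted p 0.0769) or without E15.5 replicate 2 (0.26, 0.102). Sparcl1 at P0 was above its E12.5 level by 1.88 (SE 0.08, adjusted p 1.54e-09), 3.78-fold in mean TPM.

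Among other genes of the SPARC family and of secreted or matricellular proteins, 8 of 12 were tested. Of these 8, 3 rose and 4 fell from E12.5 to P0, with a median of -0.99. The shares over all genes were 27.1% higher and 51.0% lower. Sparc, the closest relative of Sparcl1 in name and domain make-up, fell from 204.8 ± 5.04 to 61.4 ± 2.48 TPM (SD, n = 2 each; change -1.72, adjusted p 1.36e-08 in limma). Sparc was 201 and 208 TPM in the E12.5 libraries against 27.9 TPM for Sparcl1 in both, whereas at P0 it was at 63.1 and 59.6 TPM against 109 and 102. The summed meningeal and vascular markers also fell, as described above, and their part in the fall of Sparc was not tested. Spock1 (3.09), Spock2 (2.70) and Tnc (2.24) rose, and the glypican genes Gpc4 (-3.23) and Gpc6 (-2.49) fell; astrocytes are known to secrete both glypicans.

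Apoe encodes apolipoprotein E, the main lipid carrier of the brain, which microglia, choroid plexus and meningeal cells can also make. It lies on chromosome 7, reverse strand, from 19696109 to 19699188. Apoe measured 47.7 and 45.3 TPM in the E12.5 libraries, 53.2 and 46.2 in those of E14, 22.02 and 24.2 in those of E15.5, 42.3 and 43.4 in those of E17, and 114 and 90.1 in those of P0. Levels were lowest in both E15.5 libraries and highest in both P0 libraries. Apoe fell by 1.07 on the log2 scale from E14 to E15.5 (SE 0.12, adjusted p 1.72e-05 in limma), then rose by 0.86 to E17 (0.000654) and 1.22 to P0 (2.58e-05). Between E12.5 and P0 it rose by 1.10 (SE 0.12, adjusted p 3.54e-06), 2.19-fold in mean TPM, and these 4 calls held in each of 19 alternatives.

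Several marker lists moved at the step where Apoe fell. From E14 to E15.5 the summed meningeal genes (9 of 10 listed) went from 788 and 769.8 TPM to 88.1 and 93.3, the vascular genes (5 of 19) from 104 and 112 to 25.3 and 24.9, and the erythroid genes (3 of 10) from 1975 and 1880.3 to 9.26 and 9.84. The choroid plexus genes (2 of 8) went from 1405 and 1517 to 3.46 and 4.25 TPM, with Ttr as nearly all of the sum. The microglial genes (3 of 15) went from 176 and 176 to 150.4 and 145 TPM, most of it Ctsb, which neurons and other cells also express; of these, C1qb, the most specific, fell by 0.64 on the log2 scale (adjusted p 0.00127 in limma), a call lost under quantile normalization (-0.33, 0.0721). At E17, where Apoe rose, the meningeal sum was 149 and 127 TPM and the vascular sum 49.6 and 38.1 TPM. In limma 5 of 5 vascular, 5 of 9 meningeal and 2 of 3 microglial genes rose from E15.5 to E17. None of these fell, 0 of 2 choroid plexus genes were called, and 14.4% of all genes were called higher. The meningeal calls included Col1a1, Col1a2 and Col3a1, whose means were between 0.26 and 1.44 TPM at E15.5 and E17. Their calls, and that of the vascular gene Slc2a1, were lost with a pseudocount of 10 TPM. That of Col3a1 was also lost under quantile normalization. At P0, where Apoe rose further, the meningeal sum was 61.7 and 50.9 TPM and the vascular sum 21.04 and 16.9 TPM. The choroid plexus sum was between 3.07 and 5.26 TPM at E17 and P0, and C1qb between 5.89 and 7.81 TPM. The part of these cells in the level of Apoe was not tested.

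**Figure D4:**
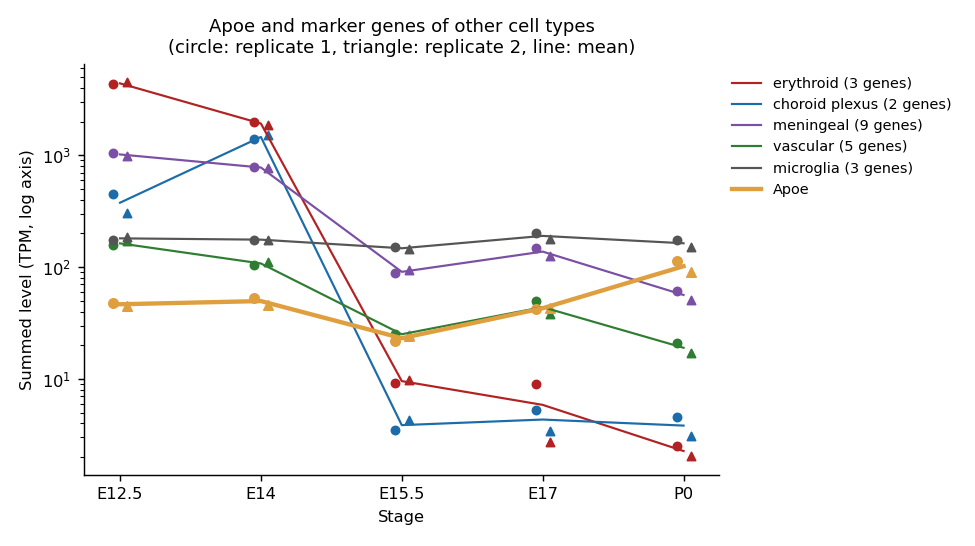
Level of Apoe and summed levels of marker genes of other cell types in TPM (vertical axis, logarithmic) against stage (horizontal axis); circles are replicate 1, triangles replicate 2 and lines the mean. Erythroid, choroid plexus, meningeal and vascular markers drop between E14 and E15.5 together with Apoe, and Apoe is highest at P0.

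Of 12 listed lipoprotein receptor and lipid genes, 7 were tested. From E12.5 to P0, 27.1% of all genes were called higher and 51.0% lower. Of these 7, 3 rose and 3 fell, with a median of 0.08. Vldlr, a receptor for lipoproteins and reelin, rose most (12.4 ± 0.09 to 34.4 ± 1.25 TPM, SD, n = 2 each; change 1.41, adjusted p 4.26e-07 in limma). Lpl, a lipase that frees fatty acids, rose by 1.305, and Clu, another apolipoprotein of astrocytes, by 0.60. Clu also fell from E14 (19.6 and 22.04 TPM) to E15.5 (12.54 and 10.3 TPM, change -0.81, adjusted p 0.000272 in limma). Unlike Apoe, it had been called higher from E12.5 to E14, from a mean of 12.8 to 20.8 TPM (0.66, adjusted p 0.0108). The calls of Lrp8 and Sorl1 as lower were lost under both other scalings.

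Aldoc encodes aldolase C, the brain form of a glycolytic enzyme, and lies on the forward strand of chromosome 11 from 78322968 to 78327781. Aldoc measured 259.9 and 282 TPM in the E12.5 libraries, 265 and 231 in those of E14, 145 and 144 in those of E15.5, 114 and 99.2 in those of E17, and 124 and 129 in those of P0. It was the highest of the 8 genes at E12.5 and E14, and all 6 later libraries lay below the first 4. Aldoc fell by 0.78 on the log2 scale from E14 to E15.5 (SE 0.09, adjusted p 3.57e-05 in limma), then by 0.43 to E17 (0.00737). Aldoc at P0 was lower than at E12.5 by a log2 change of -1.09 (SE 0.09, adjusted p 5.57e-07), or 2.14-fold lower in mean TPM. The step to E17 was not called without E15.5 replicate 1 (adjusted p 0.0628) or without E15.5 replicate 2 (0.0566). From E17 to P0 its value was 0.25 (adjusted p 0.0529), which was called without E17 replicate 1 (0.35, 0.00503), under median-of-ratios scaling (0.36, 0.00539) and under quantile normalization (0.27, 0.0245).

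Of 8 listed aldolase and other glycolytic genes, 4 were tested. From E12.5 to P0, 51.0% of all genes were called lower and 27.1% higher. Of these 4, 2 fell and 2 rose. Tpi1, whose enzyme acts just after aldolase, fell most, from 598 ± 21.5 to 256 ± 18.4 TPM (SD, n = 2 each; change -1.22, adjusted p 4.21e-07 in limma). Its largest step was also that from E14 to E15.5 (-0.86, adjusted p 3.13e-05). The phosphofructokinase genes, whose enzyme acts just before aldolase, went both ways: Pfkl fell by 1.07 on the log2 scale, and Pfkp (2.74) and Pfkm (0.68) rose.

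Aqp4 itself was not analysed here, and of 11 listed genes of the astrocyte endfoot and the dystrophin complex that anchors its channel, 6 were tested. Of these 2 rose and 3 fell from E12.5 to P0, with a median of -0.43, against 27.1% of all genes higher and 51.0% lower. The sodium pump subunit gene Atp1b2 rose from 36.9 ± 2.85 to 70.05 ± 8.84 TPM (SD, n = 2 each; change 0.90, adjusted p 0.000253 in limma). Dag1, the dystroglycan gene, fell most, from 62.2 ± 1.97 to 34.5 ± 1.11 TPM (-0.83, adjusted p 5.75e-05). The calls of Dmd and Utrn as lower were lost under quantile normalization, where the value of Dmd turned to 0.08.

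The order of the 8 genes by TPM shifted over time. At E12.5 it was Aldoc, Glul, Slc1a3, Apoe, Slc1a2, Sparcl1, Slc6a11 and Aldh1l1, with means from 271 to 0.255 TPM. From E15.5 on Glul was first, 1.16-fold above Aldoc at E15.5 and 1.81-fold at P0, with no overlap between their libraries. At P0 the order was Glul, Aldoc, Sparcl1, Apoe, Slc1a3, Slc1a2, Slc6a11 and Aldh1l1, with means from 229 to 13.8 TPM. Neighbours in the order whose libraries overlapped were Slc1a3 and Apoe at E14, Apoe and Slc1a2 at E15.5 and E17, and at P0 Sparcl1 and Apoe, and Slc1a2 and Slc6a11. Between genes, TPM depend on the length used for each gene, not given in the sources used here.

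The wider list of astrocyte genes did not move as one. Of 40 listed genes 21 were tested. From E12.5 to P0, 27.1% of all genes were called higher and 51.0% lower. Of these 21, 12 rose and 9 fell, with a median of 0.53. Gfap rose most (4.58, SE 0.11, adjusted p 3.22e-11 in limma), and most of that came in the last step, from 1.79 and 1.98 TPM at E17 to 27.7 and 25.5 TPM at P0 (3.26, adjusted p 4.81e-08). Gstm1, a glutathione transferase gene, rose from 13.2 ± 1.64 to 50.7 ± 3.51 TPM (1.87), Mt3, a metallothionein gene, from 51.1 ± 4.197 to 119.5 ± 7.996 TPM (1.21), and Acsbg1, an acyl-CoA synthetase gene, by 1.29. The secreted inhibitor gene Cst3 rose by 0.95.

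Those that fell included transcription factor and receptor genes that astrocytes share with progenitors. Fgfr3 fell most (112 ± 3.05 to 9.4 ± 1.29 TPM, SD, n = 2 each; change -3.45, adjusted p 3.54e-09 in limma), followed by Sox9 (100.2 ± 3.71 to 16.7 ± 1.72 TPM, -2.52), Nfia (-1.51) and Nfib (-1.39), whereas Nfix rose by 0.53. The metallothionein genes Mt1 (-0.87) and Mt2 (-0.71) fell. The calls of Dbi and Ndrg2 as lower were lost under median-of-ratios scaling.

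Radial glia and progenitor genes mostly fell, with 15 of 21 listed genes tested. From E12.5 to P0, 51.0% of all genes were called lower and 27.1% higher. Of these 15, 11 fell and 4 rose, with a median of -2.93. Top2a, a topoisomerase gene of dividing cells, fell most (-4.30), and the stem cell factor genes Pax6 (-3.12) and Sox2 (-1.81) fell. Fabp7 (0.94), Ptn (0.53), Ptprz1 (0.61) and Tnc (2.24) rose. Fabp7, a lipid-binding protein gene that marks radial glia and young astrocytes alike, went from 731 ± 37.4 to 1406 ± 20.1 TPM (adjusted p 0.000114 in limma).

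**Figure D5:**
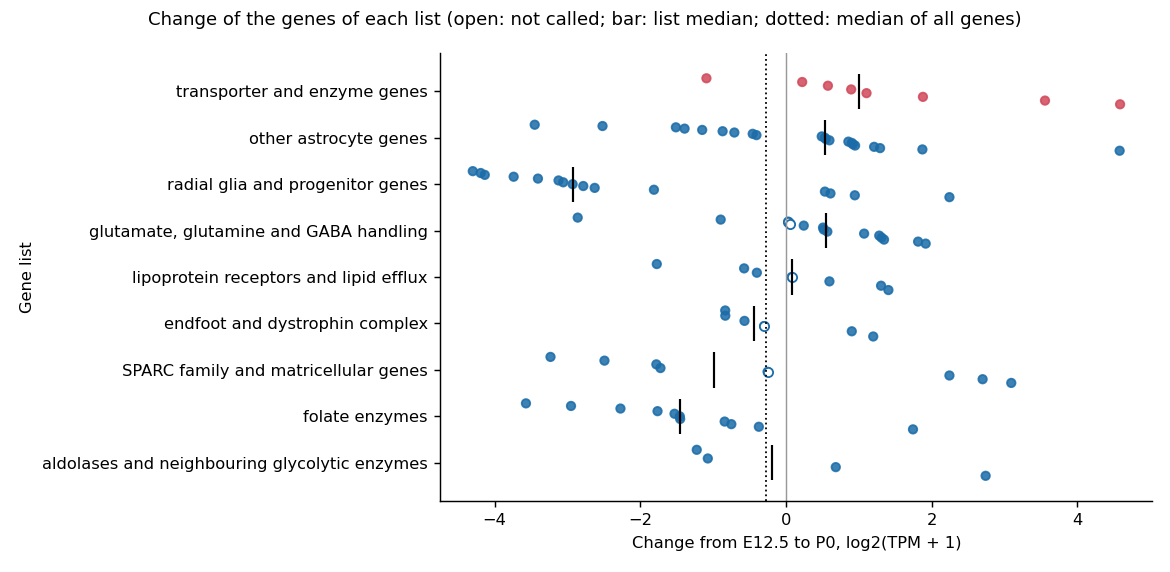
Change from E12.5 to P0 on the log2(TPM + 1) scale (horizontal axis) for each tested gene of 9 lists (vertical axis); open points were not called, bars mark list medians and the dotted line the median of all genes. The 8 transporter and enzyme genes have a median of 0.9996, and folate enzymes and progenitor genes lie mostly below 0.

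The genes whose patterns were most like those of the 8 were found among 5423 others with a mean of at least 10 TPM, by the root-mean-square difference between log2(TPM + 1) values centred on each gene's mean over the 10 libraries. For Slc1a2 they were Shisa6 (0.079) and Sv2b (0.118), both known for roles at synapses of neurons. For Slc1a3 they were Alg9 (0.059) and App (0.066), for Glul Nt5c2 (0.078) and Adss (0.086), and for Aldoc Etv6 (0.095) and Ltv1 (0.095). Sparcl1 was nearest to Prmt8 (0.113) and Ankrd13d (0.139), and Aldh1l1 to Dlgap1 (0.180), a postsynaptic scaffold gene, and Chd5 (0.193). Those nearest to Apoe were Gatm (0.278), an enzyme gene of creatine synthesis, and Bcan (0.297), which encodes the matrix proteoglycan brevican. Both were picked for a pattern close to that of Apoe in these libraries, so a shared dip at E15.5 is part of that choice. From E14 to E15.5 Gatm went from 14.8 to 9.25 and Bcan from 17.3 to 8.32 in mean TPM. Slc6a11 was furthest from its nearest genes, Adap1 (0.348) and Akap7 (0.355). The values were not scaled, so this difference also depends on how much a gene changed. It therefore does not rank the 8 genes by likeness of shape. Among the 8 themselves the nearest pairs were Slc1a2 and Slc1a3 (0.315) and Glul and Slc1a3 (0.315), and Slc6a11 and Aldh1l1 were 0.610 apart; all 10 libraries are shared by these comparisons.

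Some of the genes overlap other annotated genes in GENCODE, none of which had a row in the table. An annotated gene lies on the opposite strand within part of Slc1a2, Slc6a11, Glul, Sparcl1 and Aldh1l1. The library kit keeps the strand, but the sources used here do not say whether the counting used it, so reads from both strands cannot be told apart there. Slc1a3, Glul and Aldh1l1 also overlap annotated genes on their own strand, whose reads the strand could not separate. In Aldh1l1 these include the lincRNA gene Gm45901, from 90486393 to 90519480, which covers the GENCODE start of Aldh1l1.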

How the data were processed

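Stranded libraries of polyadenylated RNA were made from detergent lysates cleared by centrifugation, per the labels' protocols. The authors deposited a single table of TPM with a column for each library, per the file headers. The submitters' processing notes name STAR, Subread and GRCm38.p5. The sources used here do not say which annotation and gene lengths were used or how the rows were chosen. The listed genes held between 68.9% and 71.7% of all TPM per library. Columns were matched to libraries by title, with 0 columns left over.

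From these, log2(TPM + 1) was computed and genes averaging under 1 TPM were left out, which kept 6048 and removed 99, none of them among the 8 described. All were fitted with limma 3.58.1 (R 4.3.3). The 10 libraries entered 1 fit with a coefficient for each stage, 5 residual degrees of freedom and a mean-variance trend, and a gene was called where its p, adjusted over all genes after Benjamini and Hochberg, was under 0.05. The script was tested on simulated data. Differences between 2 genes within a library had an exact permutation test over stages; of 4 planned, 3 could be computed, since Aldoa was not analysed here, and 1 is given. The members, the lists and the tests were chosen with earlier results of these data known. All 8 genes are described, together with the highest and lowest gene of each list, list members where the list is described, and the 2 genes most like each of the 8, except for some that are not reported here. Positions are from GENCODE release M21 (GRCm38) and promoter sequences from RefSeq (GRCm38.p6). Tables used pandas 2.3.3 and numpy 2.4.6 under Python 3.11.15, and plots matplotlib 3.10.9. Alternatives were other pseudocounts (0.1 and 10 TPM), no filter or a minimum mean of 5 TPM, other scalings, array weights, a replicate block, only the stages compared, and each library left out in turn.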

Additional observations from a re-analysis of the deposited data

How the results depend on the processing

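Of 760 recomputed changes of single genes, 713 kept their direction and their side of the threshold, 28 lost a call, 10 gained one and 9 changed sign. The 9 were all small and uncalled, and the cause was not tested: from E12.5 to E14, Glul turned to 0.049 under median-of-ratios scaling and 0.042 under quantile normalization, and leaving out each library gave -0.081 to 0.068 for Glul, -0.27 to 0.043 for Slc6a11, -0.011 to 0.19 for Apoe and -0.012 to 0.028 for Sparcl1. From E14 to E15.5, Slc1a3 turned to 0.059 under median-of-ratios scaling and 0.023 under quantile normalization. Of 113 recomputed counts of called genes among the 8, 112 stayed within 1.5 times the main count, and 1 did not: 3 from E15.5 to E17 with only 4 libraries, a fit with fewer samples. In that fit 92 of 6048 genes were called higher and 28 lower. Leaving out a library leaves 1 library in its stage, and the number of all genes called changes too, so counts from those fits are not listed. Within libraries, the difference between P0 and E12.5 then ran from 0.59 to 0.75 for Slc1a2 minus Slc1a3 (adjusted p 0.00317 to 0.0889).

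The replicate numbers were taken only to name the libraries. Across genes, the differences between replicates 1 and 2 correlated over 0.1 for 1 of 10 pairs of stages, from -0.37 to 0.11. The most negative values were those of E12.5 with E17 (-0.37) and with E14 (-0.28). Whether libraries of different stages were handled together was not tested further. With the replicate number as a block, 7 of the 8 genes were called from E12.5 to P0, as Slc1a3 then had an adjusted p of 0.0579 in limma. List counts were recomputed under the same alternatives, a choice made after seeing the data; 524 of 608 stayed within 1.5 times. With 2 libraries per stage, and depth unknown, levels under about 1 TPM are the least certain.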
